A study of Homo sapiens with 36 samples.

Results

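The measurements concern 10 genes of disulfide bond formation in the endoplasmic reticulum (ER): the protein disulfide isomerase family genes P4HB, PDIA3, PDIA4, PDIA5, PDIA6, TXNDC5, ERP44 and ERP29 and the oxidase genes ERO1A and ERO1B. They were chosen by gene name from the 60662 gene IDs of the deposited table, and each of the 10 names matched 1 ID. All 10 passed the filter on low counts. RNA was sequenced from A549 cells, a human lung adenocarcinoma line that stands here for 1 tumour's cells, after siRNA transfection and glucose withdrawal. Each culture received 1 of 3 siRNAs at 100 nM: a non-targeting siRNA (siControl), siRNA against ATF4 (siATF4) or siRNA against ATF6 (siATF6). Cultures then spent 6 or 16 h in medium that held 25 mM glucose or none (0 mM). All media held dialysed serum and glutamine. The 12 groups had 3 biological replicates each, 36 libraries in all.

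Proteins that enter the ER are oxidised as they fold. A protein disulfide isomerase passes a disulfide from its own pair of active-site cysteines to the client, or reshuffles a wrong one, and is itself re-oxidised by an ERO1 flavoprotein, which hands the electrons to oxygen and so makes hydrogen peroxide. Glucose is also the source of the N-glycans of secreted proteins, and its loss is a classical way to cause misfolding in the ER, which activates the unfolded protein response. ATF6 is a membrane-bound transcription factor of that response, and ATF4 is the factor translated when the initiation factor eIF2 is phosphorylated.

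Total counts ran from 39.4 to 78.7 M in 35 libraries. Replicate 3 of the deprived siATF4 cells at 6 h stood apart, with 2.87 M counts and a correlation of at most 0.338 with any other library. It was left out of levels and tests, so that group has n = 2. At 6 h, replicate 2 of siControl and of siATF6 ran against its glucose labels for most of the 10 genes, as described with the 6 h results. Tests at 16 h used the 18 libraries of that time alone, whereas levels were normalised over the 35 libraries of both times. The targeted gene checked the labels. ATF6 mRNA in siATF6 cells was lower by log2 fold changes of -2.36 and -2.58 at 16 h, in 25 and 0 mM glucose, and by -2.30 and -2.17 at 6 h, all past the threshold. ATF4 mRNA in siATF4 cells was lower in 0 mM glucose at 16 h (-1.29, adjusted p = 0.000186), whereas the difference in 25 mM glucose was -0.28 (adjusted p = 0.759), and at 6 h -1.15 and -1.11 (adjusted p = 0.794 and 0.781). At 16 h ATF4 mRNA with siATF6 was at 0.38 in 25 mM and 0.31 in 0 mM glucose (adjusted p = 0.298 and 0.248). Averaged over both, a comparison added after the data were seen, it was higher (0.35, adjusted p = 0.0369). ATF6 mRNA with siATF4 at 16 h was at 0.11 in 25 mM and -0.44 in 0 mM glucose (adjusted p = 0.984 and 0.0959). Of the 8 epithelial and A549 markers, all were detected, and EPCAM was low at 1.88 to 7.64 CPM (normalised counts scaled to a common library total). The 13 markers of other cell types summed to 1.11 to 10.6 CPM per library, with CD3E and MS4A1 at 0 in all. CD14, the most abundant of them at 0.576 to 8.02 CPM, was lower with deprivation in siControl at 16 h (log2 fold change -1.38, adjusted p = 0.00173) and, in deprived cells at 16 h, lower with siATF6 (-1.58) and siATF4 (-1.19) than with siControl. Its part in the results was not tested.

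Promoter sequences are shown because the ER stress response element, to which ATF6 binds together with NF-Y, is a defined word of DNA. RefSeq starts (GRCh38.p14) were found for 9 of the 10 genes, and the 250 bases before each start were searched on both strands for 3 words. PDIA3 had no start in the source used and was not searched. The long word is CCAAT followed by 9 unspecified bases and CCACG. The others are TGACGTG and CCACG, the latter contained in the long word and able to overlap TGACGTG. A gene can have more than 1 start. The long word was in a window of 25 of 27305 gene symbols (0.0916%), PDIA6 and ERO1B among them. In PDIA6 it lay along the gene's direction, 86 to 68 bases before 1 of its starts. In ERO1B it lay in the opposite direction, 243 to 225 bases before the start. TGACGTG was in a window of 2.05% of all symbols and of 1 of the 9 genes, TXNDC5. PDIA6 and TXNDC5 each had another start, and its window held none of the 3 words. CCACG was in a window of 37.5% of all symbols and of 6 of the 9 genes, ERO1B, ERP29, PDIA4, PDIA5, PDIA6 and TXNDC5. A match describes letters, not a bound site. Only the stretch of each window outside annotated exons is printed, 5′ to 3′ along the gene, with the fixed letters of these words in capitals (ATTGG and CGTGG are CCAAT and CCACG on the other strand). The PDIA6 stretch is chr2:10812845-10813035, the ERO1B stretch chr1:236281986-236282208 and the TXNDC5 stretch chr6:7910078-7910327, all on the minus strand. Those of PDIA6 and TXNDC5 lie inside the gene as placed in the deposited table.
PDIA6: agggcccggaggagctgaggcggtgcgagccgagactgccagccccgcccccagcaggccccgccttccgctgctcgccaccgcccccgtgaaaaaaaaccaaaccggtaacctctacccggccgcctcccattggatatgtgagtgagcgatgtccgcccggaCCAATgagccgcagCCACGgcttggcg
ERO1B: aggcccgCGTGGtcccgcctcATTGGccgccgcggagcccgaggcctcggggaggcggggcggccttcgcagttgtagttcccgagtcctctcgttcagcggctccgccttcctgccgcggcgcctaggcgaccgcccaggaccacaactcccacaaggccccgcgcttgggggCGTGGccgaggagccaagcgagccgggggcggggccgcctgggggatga
TXNDC5: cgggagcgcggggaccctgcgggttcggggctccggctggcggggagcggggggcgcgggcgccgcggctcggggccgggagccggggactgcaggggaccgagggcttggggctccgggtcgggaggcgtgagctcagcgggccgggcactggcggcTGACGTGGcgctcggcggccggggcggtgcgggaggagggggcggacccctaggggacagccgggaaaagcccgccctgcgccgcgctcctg

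Levels were compared between genes as CPM per kilobase of effective length. In siControl with 25 mM glucose at 16 h, P4HB led with 478 ± 34.7 (SD, n = 3 here and below), followed by PDIA6 at 214 ± 4.99, PDIA3 at 155 ± 7.96 and PDIA4 at 123 ± 5.16. TXNDC5 stood at 93.9 ± 10, ERP29 at 63.4 ± 2.97 and ERO1A at 41.4 ± 6.7. PDIA5 (13.7 ± 1.51), ERP44 (8.03 ± 0.445) and ERO1B (2.53 ± 0.296) were the scarcest, and neighbours in this order were further apart than their SDs. After 16 h without glucose the order at the top was P4HB at 1234 ± 89.3, PDIA4 at 1012 ± 26.7, PDIA6 at 711 ± 38.1 and PDIA3 at 625 ± 46.6, so that PDIA4 had passed PDIA3 and PDIA6. The libraries of PDIA6 and PDIA3 overlapped here, with 669.5 the lowest for PDIA6 and 675.0 the highest for PDIA3. The 4 were again followed by TXNDC5 (129.6 ± 6.94), ERP29 (112 ± 4.57), ERO1A (54.5 ± 6.96), PDIA5 (32.6 ± 4.35), ERP44 (25.8 ± 1.41) and ERO1B (15.8 ± 0.856).

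Glucose deprivation for 16 h raised 9 of the 10 genes in siControl cells, where 14.6% of all 18013 IDs tested were called higher. The isomerases PDIA4, PDIA3 and PDIA6 and the oxidase ERO1B rose most, and ERO1A was the gene that missed the threshold. The median log2 fold change of the 10 was 1.52, against 0.01 for all IDs tested. The same count, 9 of 10, was called in siATF4 cells (background 14.9%, median 1.65) and in siATF6 cells (background 15.6%, median 1.32). In the 1 fit that held all 36 libraries, the failed one included, the counts were 0, 1 and 1.

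P4HB encodes protein disulfide isomerase itself, which is also a subunit of collagen prolyl 4-hydroxylase and of the microsomal triglyceride transfer protein (chromosome 17, 81843161 to 81860624, minus strand, coordinates of the deposited table on GRCh38 here and below). In siControl at 16 h it read 952, 872 and 825 CPM with glucose and 2468, 2185 and 2179 CPM without. The lowest deprived library was more than any fed one. Its log2 fold change was 1.36 (SE 0.13, adjusted p = 1.28e-06). In siATF4 it read 824, 895 and 748 against 2873, 2318 and 3224 CPM, and in siATF6 1009, 920.2 and 884 against 2414, 2135 and 1968 CPM. The rises were 1.75 and 1.19 on the log2 scale, again without overlap.

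PDIA3, which works with calnexin and calreticulin on glycoproteins (chromosome 15, 43746410 to 43773278, plus strand), read 284, 260.1 and 261 CPM with glucose and 1171, 1074 and 1011 CPM without in siControl. This was a log2 fold change of 2.01 (SE 0.12, adjusted p = 9.56e-09). With siATF4 it read 269.5, 246 and 225 against 1252, 989 and 983 CPM, a rise of 2.10. With siATF6 the deprived libraries stopped lower: 261, 214 and 225 CPM with glucose were followed by 786, 728 and 695 CPM without, a rise of 1.63.

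PDIA4, an isomerase with 3 thioredoxin-like active domains found in complexes with the chaperone BiP (chromosome 7, 149003062 to 149028662, minus strand), had the largest response of the 10 in siControl and siATF4. SiControl libraries read 314, 302 and 289 CPM with glucose and 2555, 2438 and 2445 CPM without, a log2 fold change of 3.04 (SE 0.139, adjusted p = 7.45e-10). With siATF4 the values were 254, 229 and 210.1 against 3117, 2248 and 2159 CPM, and the rise was 3.42. With siATF6 they were 292, 261 and 257 against 1273, 1170.2 and 1070.3 CPM, and the rise was 2.09. All 3 deprived siATF6 libraries were below every deprived siControl or siATF4 library.

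PDIA6, an isomerase that binds BiP (chromosome 2, 10783391 to 10837977, minus strand), showed the same order. In siControl it went from 446, 442 and 427 CPM to 1372, 1524 and 1476 CPM (log2 fold change 1.73, SE 0.0945, adjusted p = 3.98e-09). In siATF4 it went from 399, 420.0 and 368 to 1606, 1481 and 1638 CPM (1.98), and in siATF6 from 461, 428 and 402 to 1012, 1140.1 and 1069 CPM (1.29). The groups did not overlap within any siRNA. Its exons share 25.2% of their bases with ATP6V1C2 on the other strand, and the libraries were not stranded. Exons of other genes also overlap those of PDIA3 (18.9%), ERP29 (17.5%), PDIA5 (14.3%), P4HB (9.98%) and ERO1A (7.7%). In the annotation used for these shares, all of these genes but PDIA6 had another start or end than in the deposited table.

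PDIA5, a less abundant isomerase (chromosome 3, 123067025 to 123225227, plus strand), rose by 1.25, 1.36 and 1.37 on the log2 scale in siControl, siATF4 and siATF6. SiControl libraries read 22.6, 18.2 and 21.3 CPM with glucose and 56.7, 45.8 and 45 CPM without. Deprived libraries read 62.2, 46.7 and 57 CPM in siATF4 and 65.2, 67.8 and 66.8 CPM in siATF6, all above the fed ones, which ran from 18.5 to 27.8 CPM. TXNDC5, which has 3 thioredoxin domains (chromosome 6, 7881517 to 7910788, minus strand), had a small response. It went from 275, 239 and 224 CPM to 359.8, 336 and 324 CPM in siControl, a log2 fold change of 0.46 (SE 0.117, adjusted p = 0.00737), and rose by 0.56 in siATF4 and 0.57 in siATF6. Its groups did not overlap, but they lay close. In siATF4 its call was lost when only the libraries compared were fitted (0.55, adjusted p = 0.1). Of its exon bases, 60.6% also belong to the readthrough gene BLOC1S5-TXNDC5, to which 0.0435% as many counts were assigned.

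ERP44 holds ERO1 proteins and unassembled clients in the early secretory pathway (chromosome 9, 99979185 to 100099000, minus strand). SiControl libraries read 37.9, 34 and 37.1 CPM with glucose and 122, 118 and 109.8 CPM without, a log2 fold change of 1.68 (SE 0.114, adjusted p = 3.56e-08). The rise was 1.55 in siATF4 and 1.35 in siATF6. ERP29, a family member without the active-site cysteine pair (chromosome 12, 112013348 to 112023449, plus strand), went from 78.2, 85.9 and 82.6 CPM to 143, 151 and 139.7 CPM in siControl, a rise of 0.81 (SE 0.132, adjusted p = 0.000221). It rose by 0.60 in siATF4 and 0.69 in siATF6. In siATF4 the libraries spread more, from 78.4 to 104 CPM with glucose and from 114 to 172 CPM without, and the call was lost when only the libraries compared were fitted (0.59, adjusted p = 0.113).

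The oxidase genes parted. ERO1B (chromosome 1, 236215101 to 236281958, minus strand) read 11.6, 10.7 and 13.4 CPM with glucose and 79.2, 71.5 and 73.2 CPM without in siControl, a log2 fold change of 2.64 (SE 0.167, adjusted p = 1.65e-08). ERO1A, the form otherwise known for its induction by hypoxia (chromosome 14, 52639915 to 52695900, minus strand), read 139, 105 and 108 CPM with glucose and 177, 140.4 and 146 CPM without. Every deprived ERO1A library was above every fed one, yet replicate 1 was highest in both groups and the log2 fold change of 0.39 (SE 0.196) missed the threshold (adjusted p = 0.148). With the replicate number as a block the value was 0.40 and past it (adjusted p = 0.00896), as it was with transfection as a block (adjusted p = 0.038) or only the libraries compared (adjusted p = 0.0489). In siATF4 ERO1A changed by 0.16 (132, 87.8 and 96.3 against 138, 125 and 95.9 CPM, adjusted p = 0.566). In siATF6 it changed by 0.08 (83.6, 71.4 and 73.1 against 106, 71 and 68.3 CPM, adjusted p = 0.792). These groups overlapped. ERO1B rose by 2.38 in siATF4 and 2.32 in siATF6, from 10.4, 8.99 and 10 to 62.2, 56.7 and 36.3 CPM and from 8.86, 9.14 and 9.34 to 52.4, 44 and 42.3 CPM. Per kilobase, the ratio of ERO1A to ERO1B was 16.5 ± 3.27 with glucose and 3.43 ± 0.248 without in siControl. It went from 17.8 ± 2.91 to 3.92 ± 0.416 in siATF4 and from 13.9 ± 1.55 to 2.91 ± 0.398 in siATF6, with no overlap of fed and deprived libraries.

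**Figure D1:**
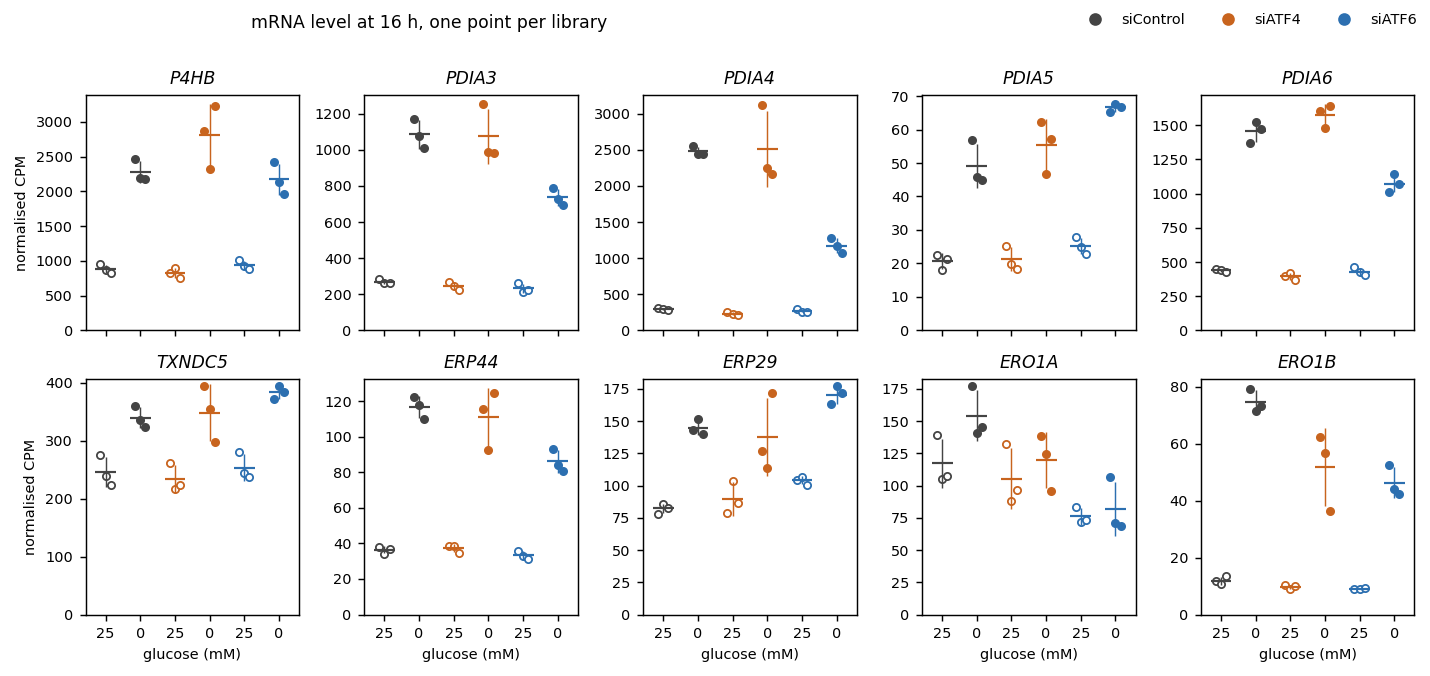
Level of each of the 10 genes at 16 h, in TMM-normalised CPM on linear axes from 0, for siControl (grey), siATF4 (orange) and siATF6 (blue) with 25 mM (open points) or 0 mM glucose (filled points). Each point is a library, the horizontal line is the mean and the vertical line spans 1 SD either side (n = 3). Deprived PDIA4 libraries lie between 1070.3 and 1273 CPM in siATF6 and between 2438 and 2555 CPM in siControl.

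**Figure D2:**
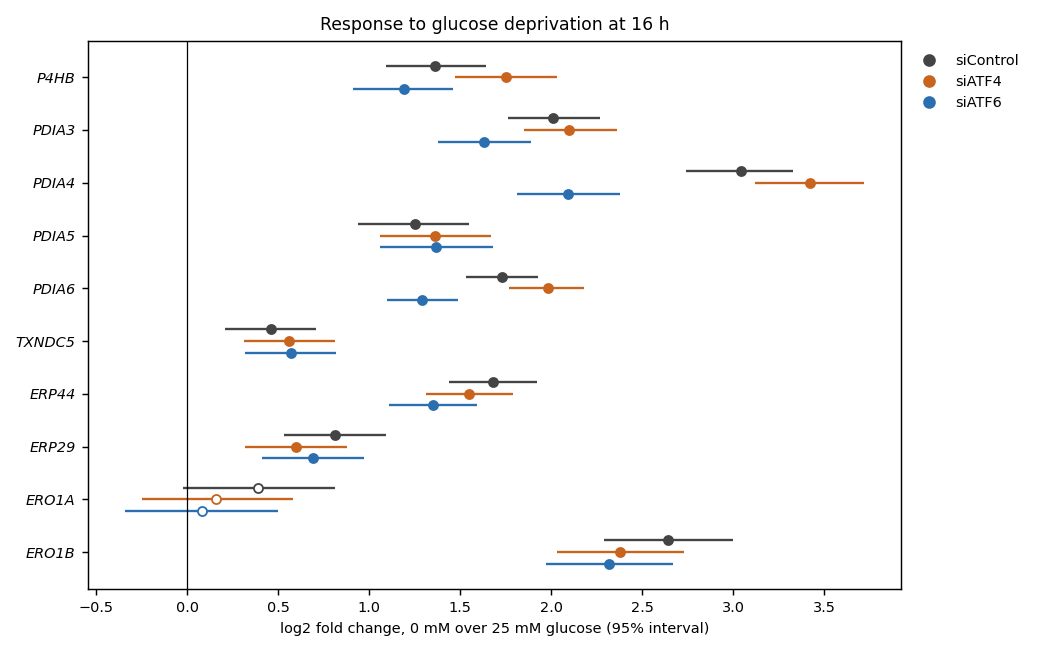
Log2 fold change of 0 mM over 25 mM glucose at 16 h for each gene (y axis), with its 95% interval, in siControl, siATF4 and siATF6. Filled points have an adjusted p under 0.05 in edgeR. ERO1A is open in all 3, at 0.39, 0.16 and 0.08, and PDIA4 ranges from 2.09 in siATF6 to 3.42 in siATF4.

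Summed over the 10 genes, the level per kilobase in siControl was 1193 ± 66.4 CPM with glucose and 3953 ± 146 CPM without. In siATF4 it was 1095 ± 75.1 and 4285 ± 459.8 CPM. In siATF6 it was 1192 ± 83.3 and 2983 ± 178 CPM. The make-up of this sum changed as well. In siControl the share of PDIA4 went from 10.3% to 25.6% and that of P4HB from 40.1% to 31.2%, while PDIA6 held 17.9% and 18%. TXNDC5 went from 7.86% to 3.28%, and ERO1A from 3.45% to 1.38%. In deprived siATF6 cells PDIA4 made up 16% and P4HB 39.4%. These are shares of mRNA within each library, with no test.

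**Figure D3:**
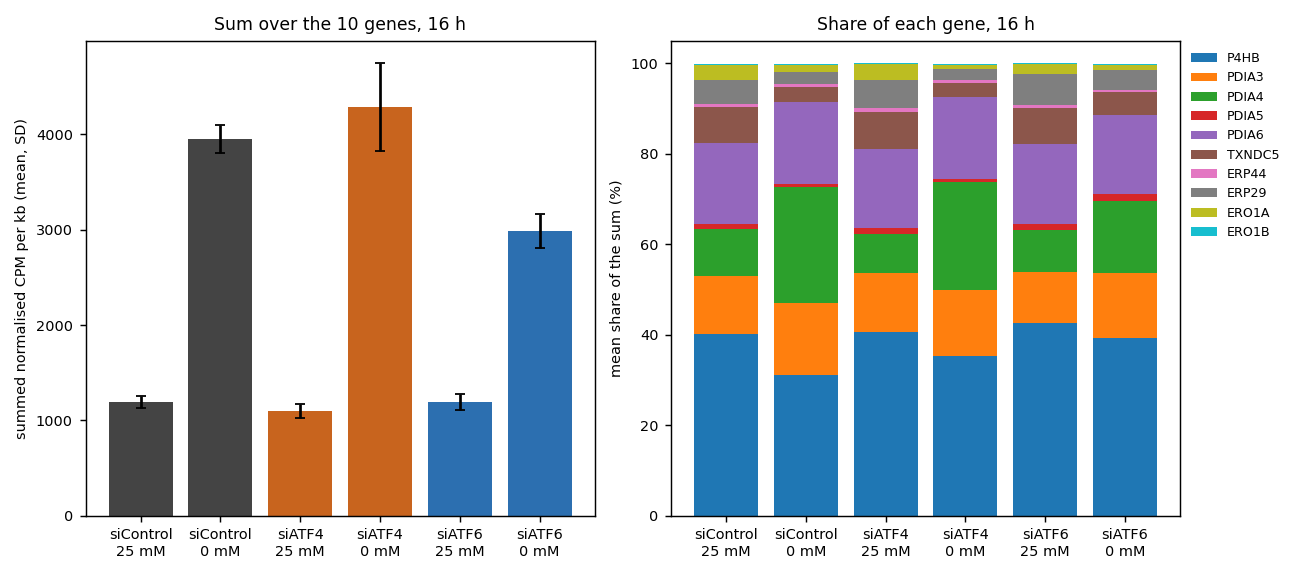
Left, the sum of the 10 genes' levels at 16 h in CPM per kilobase (bars, mean; error bars, SD; n = 3) by siRNA and glucose. Right, the mean share of each gene in that sum (%). Deprived siATF6 cells reached 2983 CPM per kilobase against 3953 in siControl, and the PDIA4 share is 16% against 25.6%.

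Related genes were counted from lists chosen for their roles. Of all IDs, 14.6% were called higher and 14.5% lower with deprivation in siControl at 16 h, 14.9% and 14.2% in siATF4, and 15.6% and 17.9% in siATF6. Counts of 1 and 2 of 13 are near these shares. Of 11 tested other thioredoxin-fold proteins of the ER, 5 rose and none fell with deprivation in siControl at 16 h (median 0.44). They were AGR2 (2.26), DNAJC10, a disulfide reductase that acts with BiP in ER-associated degradation (1.42), TXNDC11 (0.81), SELENOF (0.54) and TMX2 (0.44). Of 9 tested partners of the family, 4 rose and none fell (median 0.52): HSPA5, which encodes BiP (3.88), the lectin chaperones CALR (2.07) and CANX (1.41), and P4HA1, which pairs with P4HB in prolyl hydroxylase (0.49). Of 6 other oxidases and peroxidases of the secretory pathway, none rose and VKORC1L1 fell by 0.27 (median 0.07). Of 13 thioredoxin system genes of cytosol and mitochondria, TXNRD1 rose (0.62), and GLRX5 (-0.66) and PRDX3 (-0.25) fell, with a median of 0. In siATF4 the same lists had 5 higher and 2 lower, 5 higher and none lower, 1 higher and 2 lower, and 2 higher and none lower. In siATF6 they had 4 and 1, 4 and 1, 1 and 1, and 2 and 3. The lower genes among ER thioredoxin-fold proteins were TMX4 (-0.43) and TXNDC16 (-0.84) in siATF4 and TXNDC16 (-0.86) in siATF6.

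Silencing ATF6 lowered 6 of the 10 genes in cells deprived for 16 h, where 2.91% of all IDs were called lower. PDIA4 was lowered most, by a log2 fold change of -1.10 (SE 0.13, adjusted p = 0.000362), which is a level of 1171 ± 102 CPM against 2479 ± 65.4 CPM in siControl. ERO1A was lower by -0.93 (adjusted p = 0.014), ERO1B by -0.71 (adjusted p = 0.0181), PDIA3 by -0.58 (adjusted p = 0.0103), PDIA6 by -0.46 (adjusted p = 0.0101) and ERP44 by -0.45 (adjusted p = 0.0304). Every siATF6 library was below every siControl library in these 6 genes and in none of the other 4. Of all IDs, 14.5% separated in this way. Such a share was not counted for the opposite direction or for the other comparisons. ERP44 read 93.3, 84.1 and 80.7 CPM against 122, 118 and 109.8 CPM. P4HB did not pass the test (-0.08, 95% interval -0.36 to 0.19), nor did TXNDC5 (0.16) or ERP29 (0.22). PDIA5 read 65.2, 67.8 and 66.8 CPM against 56.7, 45.8 and 45 CPM, higher in every library, and missed the threshold (0.42, adjusted p = 0.117). It passed with the replicate block (0.43, adjusted p = 0.0206) and in DESeq2 (0.44, adjusted p = 0.0413).

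The PDIA4 call held whichever of the 6 libraries was left out. ERP44 lost its call without replicate 1, 2 or 3 of siControl (-0.42, -0.45 and -0.48, adjusted p = 0.0825, 0.0892 and 0.0809) and without replicate 2 or 3 of siATF6 (-0.44 and -0.41, adjusted p = 0.129 and 0.16). PDIA3 lost it without siATF6 replicate 2 or 3 (-0.57 and -0.54, adjusted p = 0.0567 and 0.0763), and PDIA6 without siControl replicate 2 or 3 or siATF6 replicate 3 (-0.42, -0.43 and -0.45, adjusted p = 0.0507, 0.06 and 0.0635). ERO1A lost it without siControl replicate 3 or siATF6 replicate 2 or 3 (-0.96, -0.84 and -0.81, adjusted p = 0.0529, 0.0887 and 0.0963). ERO1B lost it without siControl replicate 1 or 3 or siATF6 replicate 2 or 3 (-0.66, -0.71, -0.67 and -0.65, adjusted p = 0.0503, 0.082, 0.095 and 0.111). In the fit of 35 libraries, where the spread of the 6 h libraries enters, ERO1A alone was called and PDIA4 was at -1.08 (adjusted p = 0.122). With no filter on low counts, PDIA6 (adjusted p = 0.0824) and ERP44 (adjusted p = 0.113) lost their calls.

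With glucose present, siATF6 changed none of the 10 genes past the threshold at 16 h (edgeR, background 0.749% in either direction) and DESeq2 called none. At an unadjusted p under 0.05 there were 3, against 10.9% of all IDs. ERO1A read 83.6, 71.4 and 73.1 CPM against 139, 105 and 108 CPM in siControl, without overlap (-0.62, adjusted p = 0.207, and -0.61 with adjusted p = 0.00845 with the replicate block). ERP29 read 105, 107 and 101 CPM against 78.2, 85.9 and 82.6 CPM, higher in every library (0.35, adjusted p = 0.315). Both passed when only the libraries compared were fitted, at -0.65 (adjusted p = 0.0253) and 0.31 (adjusted p = 0.0257). The other genes lowered in deprived cells were at -0.38 (ERO1B), -0.20 (PDIA3), -0.15 (PDIA4), -0.12 (ERP44) and -0.02 (PDIA6), none past the threshold. ERO1B ran from 8.86 to 9.34 CPM against 10.7 to 13.4 CPM in siControl, lower in every library (adjusted p = 0.387). Averaged over both glucose concentrations, a comparison added after the data were seen, siATF6 lowered ERO1A (-0.77, adjusted p = 0.00274), PDIA4 (-0.63), ERO1B (-0.54), PDIA3 (-0.39), ERP44 (-0.29) and PDIA6 (-0.24), with 5.98% of all IDs called lower. It raised PDIA5 (0.36, adjusted p = 0.0348), with 4.01% called higher.

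Among related genes, TXNDC16 (-1.22, adjusted p = 0.011), 1 of 11 ER thioredoxin-fold proteins, was lower with siATF6 in deprived cells at 16 h. So was HSPA5 (-0.48, adjusted p = 0.0133), 1 of 9 partners. Of all IDs, 2.91% were called lower here, and 1 call in a list is not a result about that list. None of the 6 other oxidases and peroxidases or of the 13 cytosolic and mitochondrial genes passed. The list medians were -0.07, -0.15, 0.16 and 0.09, against -0.46 for the 10 genes and -0.01 for all IDs.

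With siATF4, 1 of the 10 genes was called lower in deprived cells at 16 h, ERO1B, where 5.09% of all IDs were called lower. A count of 1 of 10 is near this share. At an unadjusted p under 0.05 in edgeR there were 2, against 30.9% of all IDs. The split of all calls, 1318 higher and 917 lower, was 974 and 1016 with upper-quartile factors. ERO1B read 62.2, 56.7 and 36.3 CPM with siATF4 and 79.2, 71.5 and 73.2 CPM in siControl (-0.54, SE 0.157, adjusted p = 0.0356). Every siATF4 library was lower and replicate 3 was lowest. The call was lost without siATF4 replicate 3 (-0.34, adjusted p = 0.094), without siControl replicate 1, 2 or 3 (-0.50, -0.57 and -0.56, adjusted p = 0.101, 0.0663 and 0.102), with no filter on low counts (adjusted p = 0.0681), when only the libraries compared were fitted (adjusted p = 0.312) and in the fit of 35 libraries (adjusted p = 0.328). The 8 isomerase family genes differed from siControl by -0.09 (ERP44 and ERP29) to 0.29 (P4HB), none past the threshold, and PDIA4 stood at 2508 ± 529 CPM against 2479 ± 65.4 CPM. P4HB passed without siATF4 replicate 2 (0.40, adjusted p = 0.0293). ERO1A was at -0.38 (adjusted p = 0.198).

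With glucose present, siATF4 changed none of the 10 genes past the threshold at 16 h (edgeR, background 0.0444%) and DESeq2 called none. At an unadjusted p under 0.05 there was 1, against 6.93% of all IDs, so that 1 of 10 is near the background. That gene was PDIA4, at 254, 229 and 210.1 CPM against 314, 302 and 289 CPM, lower in every library (-0.38, adjusted p = 0.469). ATF4 mRNA itself was not lowered past the threshold in these cells. Averaged over both glucose concentrations, added after the data were seen, ERO1B was lower (-0.41, adjusted p = 0.0312), with 4.33% of IDs called lower. In deprived siATF4 cells, where 7.32% of all IDs were called higher and 5.09% lower, related genes were called in both directions, few in each list. Of the 6 oxidases and peroxidases, PRDX4, the ER peroxidase that uses the hydrogen peroxide made by ERO1, was higher (0.50) and so was VKORC1 (0.58), and GPX8 was lower (-1.14, adjusted p = 0.000399). Of the partners, P4HA3 was higher (0.83) and ITPR1 lower (-1.10), and of the ER thioredoxin-fold proteins TMX4 was lower (-0.38). Of the cytosolic and mitochondrial genes, TXNRD2 (0.86), GLRX5 (0.66) and GLRX3 (0.48) were higher.

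**Figure D4:**
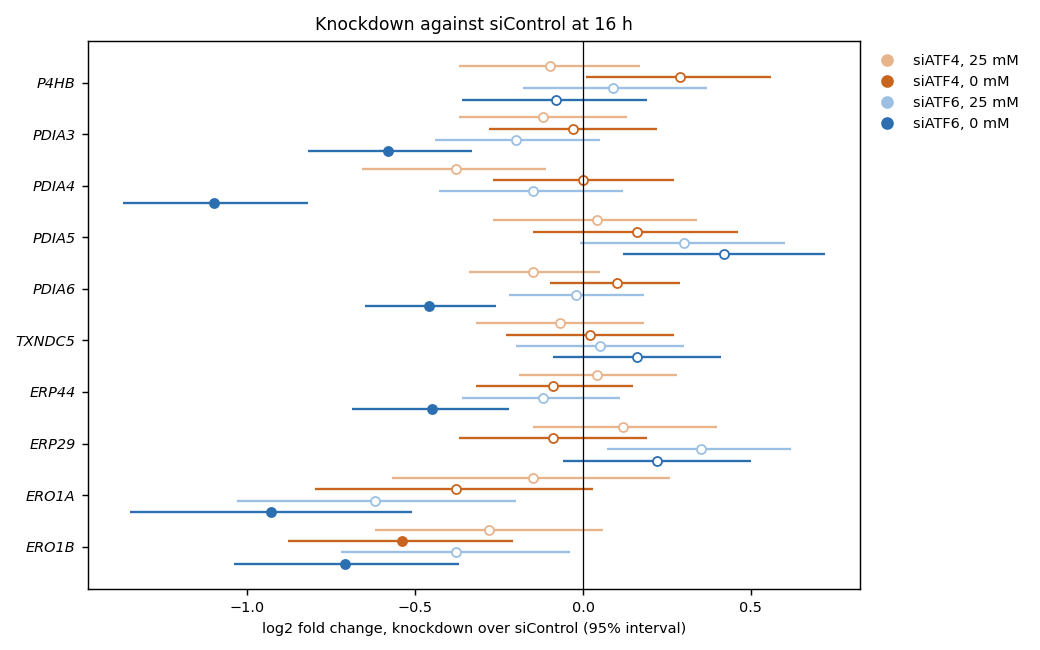
Log2 fold change of siATF4 (orange) or siATF6 (blue) over siControl at 16 h for each gene (y axis), with its 95% interval, in 25 mM (light) and 0 mM glucose (dark). Filled points have an adjusted p under 0.05 in edgeR. The filled points are ERO1B for siATF4 in 0 mM glucose and, for siATF6 in 0 mM glucose, PDIA3, PDIA4, PDIA6, ERP44, ERO1A and ERO1B, from -0.45 to -1.10.

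Whether the response to deprivation itself differed between siRNAs was tested as an interaction. Between siATF6 and siControl none of the 10 genes passed in edgeR (background 0%), 4 had an unadjusted p under 0.05, and 412 of all 18013 IDs did (2.29%). PDIA4 had the largest difference, -0.94 (95% interval -1.33 to -0.56, adjusted p = 0.356), and DESeq2 called this gene alone of the 10 (-0.92, adjusted p = 0.0037). It also passed with the replicate block (-0.95, adjusted p = 0.0496) and when only the libraries compared were fitted (-0.90, adjusted p = 0.0184). Between siATF4 and siControl none passed (edgeR, background 0.172%) and DESeq2 called none. At an unadjusted p under 0.05 there was 1, against 9.16% of all IDs. P4HB (0.39) and PDIA4 (0.38) had the largest differences. The responses in siATF4 and siATF6 cells differed for PDIA4 by 1.33 (SE 0.183, adjusted p = 0.00384) and for PDIA6 by 0.68 (SE 0.13, adjusted p = 0.0307), where 0.150% of all IDs were called higher. Both calls were lost when only the libraries compared were fitted (adjusted p = 0.0777 and 0.256) and in the fit of 35 libraries (adjusted p = 0.483 and 0.493). The PDIA4 call held whichever library was left out. The PDIA6 call was also lost with no filter (adjusted p = 0.187) and with transfection as a block (adjusted p = 0.16). The PDIA6 call was lost without siATF4 replicate 1 or 3 with glucose (0.69 and 0.63, adjusted p = 0.0679 and 0.123), without siATF6 replicate 1, 2 or 3 with glucose (0.63, 0.69 and 0.73, adjusted p = 0.109, 0.0945 and 0.051) and without siATF6 replicate 1, 2 or 3 deprived of it (0.64, 0.73 and 0.68, adjusted p = 0.0727, 0.0593 and 0.108).

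At 6 h no gene of the 10 was called with deprivation in siControl, siATF4 or siATF6 (edgeR, background 0% in each), and DESeq2 called none. At an unadjusted p under 0.05 there were 0, 5 and 0, and 0.986%, 3.79% and 0.806% of all IDs. The libraries of siControl did not move together. PDIA4 read 311, 785 and 264 CPM with glucose and 1052, 279 and 901 CPM without, in the order of replicates 1, 2 and 3. Replicates 1 and 3 were higher without glucose, and replicate 2 was higher with it. P4HB (952, 1074 and 791 against 1452, 808 and 1079 CPM) and PDIA6 (422, 688 and 398 against 786, 417 and 727 CPM) had the same order. ERO1B did the same, with 14.4, 27.1 and 14.6 CPM against 37.1, 11.1 and 35.8 CPM. Over the 10 genes, the ratio of the deprived to the fed library of the same number was above 1 for 10 genes in replicates 1 and 3 of siControl and for none in replicate 2, with median log2 ratios of 0.70, 0.76 and -0.64. In siATF6 it was above 1 for 9, 1 and 9 genes in replicates 1, 2 and 3, with medians of 0.53, -0.35 and 0.44. In siATF4, where replicates 1 and 2 remained, it was above 1 for 10 and 9 genes, with medians of 0.72 and 0.38. At 16 h it was above 1 for at least 9 genes in every pair. No library was moved to another group.

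Without all 6 h libraries of replicate 2, 5 genes were called higher in siControl, where 1.90% of 18799 IDs were: PDIA4 (1.77, adjusted p = 0.00512), ERO1B (1.33), PDIA3 (0.96), PDIA6 (0.88) and ERP44 (0.74). The same 5 genes were called in siATF4 (background 0.862%), with PDIA4 at 2.06 (adjusted p = 0.00889) and with 1 deprived library left, whose spread is assumed to be that of the other groups. In siATF6, PDIA4 (1.16, adjusted p = 0.0365) and PDIA6 (0.61, adjusted p = 0.0446) were called (background 1.06%). Replicate 2 was singled out for its values, so these calls describe the other libraries and are not an independent test.

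**Figure D5:**
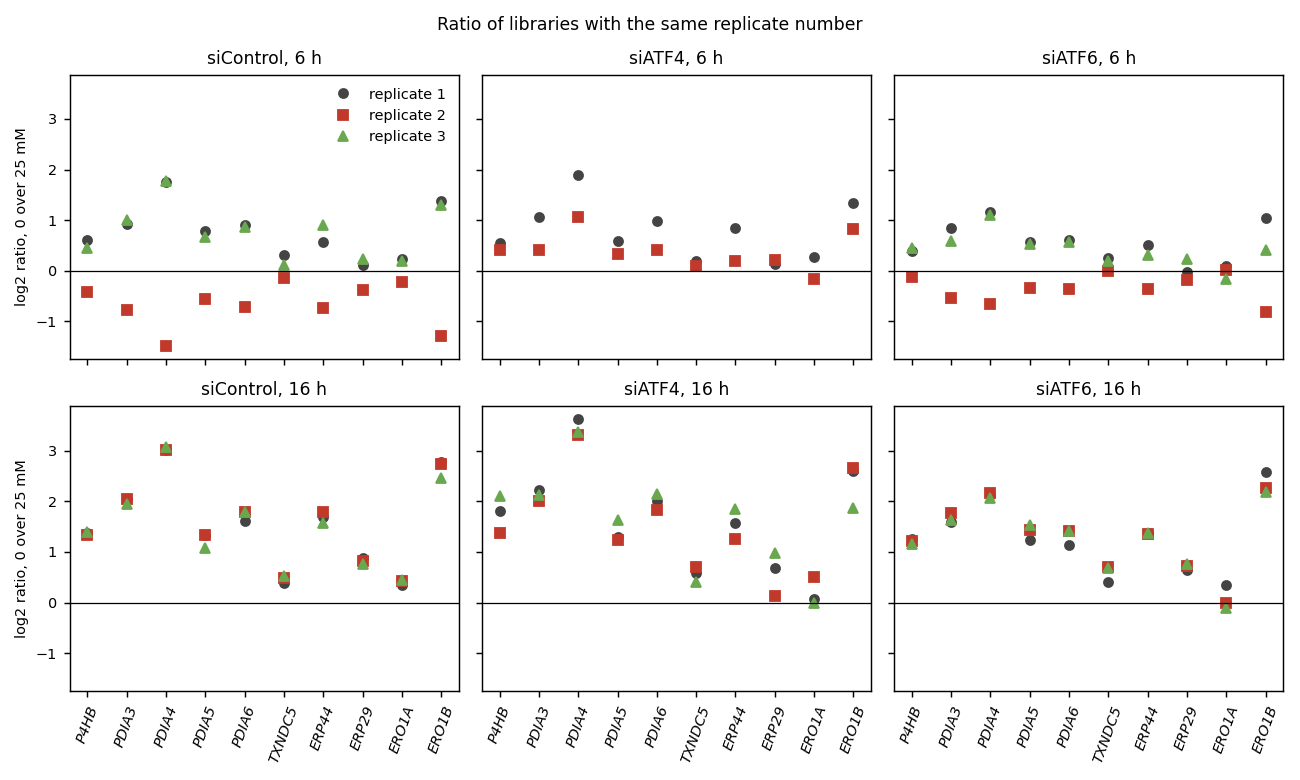
Log2 ratio of the library without glucose to the library with glucose of the same replicate number, for each gene (x axis), at 6 h (top) and 16 h (bottom) in siControl, siATF4 and siATF6. Each point is 1 pair of libraries. At 6 h, replicate 2 (red squares) lies below 0 for all 10 genes in siControl and for 9 in siATF6, and at 16 h every pair lies above 0 except for ERO1A in siATF4 replicate 3 and siATF6 replicates 2 and 3. The siATF4 pairs at 16 h spread for some genes, as ERP29 at 0.69, 0.13 and 0.98.

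The knockdown comparisons at 6 h called none of the 10 genes in edgeR, in backgrounds of 0.496% (siATF6 with glucose), 0.311% (siATF6 without), 0% and 0% (siATF4 with and without). At an unadjusted p under 0.05 there was 1 gene in each siATF6 comparison, where 12% and 12.3% of all IDs were, and 0 in each siATF4 comparison, where 4.11% and 5.27% were. DESeq2 called the same counts. That gene was ERO1A, and 1 of 10 is near these shares. It read 81.2, 46.9 and 78.5 CPM with siATF6 and 119, 135 and 113 CPM with siControl in 25 mM glucose, and 86.7, 47.5 and 70.4 against 141, 115 and 129.6 CPM in 0 mM. Every siATF6 library was lower than every siControl library, and replicate 2 of siATF6 was lowest. The log2 fold changes were -0.83 (adjusted p = 0.136) and -0.92 (adjusted p = 0.099) in edgeR, -0.87 (adjusted p = 0.0157) and -0.94 (adjusted p = 0.0121) with the replicate block, and -0.83 (adjusted p = 0.0205) and -0.91 (adjusted p = 0.00673) in DESeq2. Averaged over both glucose concentrations, added after the data were seen, ERO1A was the 1 gene of the 10 called at 6 h with siATF6 (-0.87, adjusted p = 0.00516, with 3.98% of IDs called lower), and none was called with siATF4 (background 0.191%, and 0 at an unadjusted p under 0.05 against 9.73% of all IDs).

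The response to deprivation in siControl was larger at 16 h than at 6 h for 7 of the 10 genes, where 4.09% of all 19030 IDs tested were called higher. The differences were 2.32 for PDIA4 (adjusted p = 0.00627), 2.07 for ERO1B, 1.60 for PDIA3, 1.38 for PDIA6, 1.38 for ERP44, 1.12 for P4HB and 0.81 for ERP29. PDIA5 (0.96, adjusted p = 0.0565), TXNDC5 (0.36, adjusted p = 0.225) and ERO1A (0.32, adjusted p = 0.582) did not pass. The 6 h arm of this comparison includes replicate 2. Without it the differences were 1.27, 1.32, 1.05, 0.85, 0.94, 0.83 and 0.65 in the same order, and ERP29 lost its call (adjusted p = 0.0678), in a background of 2.16%. PDIA4 lost its call when only the libraries compared were fitted (adjusted p = 0.0532) and with transfection as a block (2.26, adjusted p = 0.0602). PDIA5 passed in DESeq2 (0.95, adjusted p = 0.0347), with upper-quartile factors (0.96, adjusted p = 0.0497), without siControl replicate 3 with glucose at 6 h (1.16, adjusted p = 0.0218) and without siControl replicate 1 deprived at 6 h (1.22, adjusted p = 0.0156).

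Over the 18 libraries of 16 h, the log2 levels of P4HB, PDIA3, PDIA4 and PDIA6 had Pearson correlations of 0.97 to 0.99 with each other, and those of the 9 genes other than ERO1A 0.77 to 0.99. ERO1A correlated with these 9 at -0.13 to 0.44. The libraries share their siRNA and glucose groups, and the values changed once each group's mean was removed. They were then 0.2 to 0.91 among P4HB, PDIA3, PDIA4 and PDIA6, -0.82 to 0.91 among the 9, and -0.68 (ERP29) to 0.75 (PDIA3) between ERO1A and the 9. Outside the 10, likeness was ranked among 18013 IDs with each group's mean left in, so shared group differences enter these values. The genes most like PDIA4 were HSP90B1 (0.998), DNAJB11 (0.996) and CRELD2 (0.994), and those most like P4HB were PPIB (0.993), SELENOK (0.993) and TMED9 (0.991). For ERO1B they were DNAJC3 (0.99), SLC39A14 (0.988) and REPS2 (0.986). For ERO1A they were OSTM1 (0.976), COL5A1 (0.955) and AMIGO2 (0.953).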

How the data were processed

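Per the labels' protocols, poly(A) RNA was made into unstranded libraries, which were sequenced from both ends with 150 bases each. The submitters' processing notes name fastp, STAR and RSEM with GRCh38, and versions and annotation release are not given in the sources used here. The authors deposited RSEM expected counts per gene ID, not normalized, for 36 libraries, and these were rounded to whole numbers.

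Tests used edgeR 4.0.16 (R 4.3.3) (filterByExpr with a minimum count of 10 and a minimum total of 15, TMM factors, robust quasi-likelihood fits, 1 mean per group), with Benjamini-Hochberg adjustment over all IDs of a comparison and a threshold of 0.05. The 16 h libraries (18), the 6 h libraries without the failed one (17) and both times (35) were fitted apart, with 18013, 18355 and 19030 IDs. Of 22 comparisons, 18 were planned and 4 were added after the data were seen. Levels are TMM-normalised CPM with factors from the 35 libraries of both times, and for correlations from the 18 libraries of 16 h. They are shares of a library's RNA, and in bulk RNA fewer expressing cells and less RNA per cell cannot be told apart. Per kilobase values use the effective length in the deposited table. Replicates of a group differed by a mean chi-square per gene of at least 9.07, so no library was counted as a copy of another. The replicates are cultures of 1 cell line, and the sources of their spread were not tested. The script was tested on simulated data.

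The 10 genes, the gene lists and the tests were chosen with earlier results of these data known. All 10 genes are named. Of other lists, some of the genes called are named. The others, some called in the opposite direction among them, are only counted. The 3 genes most correlated with a member are named for PDIA4, P4HB, ERO1B and ERO1A. Same-numbered libraries may share a transfected culture, since the labels say that a culture was plated in a pair of wells. Deviations of same-numbered libraries from their group means correlated at over 0.1 in every pair for deprivation in siControl (0.25 to 0.51) and siATF6 (0.14 to 0.36) at 16 h, for siATF6 against siControl at 16 h (0.2 to 0.6 in 0 mM and 0.21 to 0.54 in 25 mM glucose) and for the knockdowns at 6 h, but not for deprivation in siATF4 at 16 h (-0.36 to 0.55), for siATF4 against siControl in 0 mM glucose at 16 h (0.09 to 0.53), nor for deprivation in siControl at 6 h (-0.01 to 0.41) or siATF6 at 6 h (0.1 to 0.38). Where they paired, the blocked value stands beside a result whose call it changes. Alternatives were other size factors, no filter, DESeq2 1.42.0, other sets of libraries, blocks by replicate number or transfection, and each library left out. Promoter windows and exon overlap came from RefSeq (GRCh38.p14) and GENCODE annotation. Of the 10 genes, PDIA6 alone had the same start and end in that GENCODE release as in the deposited table.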

Additional observations from a re-analysis of the deposited data

Results flagged for a closer look

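The response to deprivation at 16 h differed between siATF4 and siATF6 cells for PDIA4 by 1.33 and for PDIA6 by 0.68 on the log2 scale, by an interaction test in edgeR. Of 21 alternative fits, 18 called PDIA4 and 8 called PDIA6, and both calls were lost when only the libraries compared were fitted. In siControl the response differed between 16 and 6 h for P4HB (1.12), PDIA3 (1.60), PDIA4 (2.32), PDIA6 (1.38), ERP44 (1.38), ERP29 (0.81) and ERO1B (2.07). The 6 h values include replicate 2, which ran against its glucose labels. Groups of 3 libraries were not searched for single outlying values.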

How the results depend on the processing

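Counts of the 10 genes past the threshold moved by over 1.5 times as follows. The replicate block (pairing by replicate number) gave 1 gene for siATF6 against siControl at 16 h in 25 mM glucose, at 6 h in 25 mM and at 6 h in 0 mM glucose, 2 for siATF4 against siControl in 0 mM glucose at 16 h (ERO1A at -0.38, adjusted p = 0.023, joined ERO1B) and 1 for the difference in response between siATF6 and siControl. The block also called PDIA5 (0.96, adjusted p = 0.0205) and TXNDC5 (0.37, adjusted p = 0.0463) for 16 h against 6 h. DESeq2 gave 1 gene for that difference between siATF6 and siControl, and 1 for siATF6 at 6 h in each glucose concentration. With only the libraries compared, the counts were 2 for siATF6 in 25 mM at 16 h, 0 for siATF4 in 0 mM at 16 h, 1 for the difference between siATF6 and siControl and 0 for that between siATF4 and siATF6. With no filter on low counts they were 0 for siATF4 in 0 mM at 16 h and 1 for siATF4 against siATF6, and with transfection as a block 1 for the latter. With 35 libraries they were 0 for siATF4 and 1 for siATF6 in 0 mM at 16 h, 0 for siATF4 against siATF6 and 1 for siATF6 in 0 mM at 6 h. With all 36 libraries they were 0, 1 and 1 for deprivation at 16 h in siControl, siATF4 and siATF6, and 0 for both knockdowns in 0 mM at 16 h, for siATF4 against siATF6 and for 16 h against 6 h. Averaging over both glucose concentrations, chosen after seeing the data, gave 1 gene for siATF4 and 7 for siATF6 at 16 h, and 1 for siATF6 at 6 h. Without the 6 h libraries of replicate 2, the deprivation counts at 6 h were 5, 5 and 2. Leaving out 1 library gave 0 to 2 for siATF4 and 1 to 6 for siATF6 in 0 mM at 16 h, and 1 to 2 for siATF4 against siATF6. No called gene reversed its direction in the alternatives run. The causes were not tested. No size factor alternative moved the median of all genes by over 0.1. With upper-quartile factors siATF6 against siControl in 25 mM glucose at 16 h called 23 IDs higher and 138 lower, against 34 and 101.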
